A study of Mus musculus with 6 samples.

Results

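Astrocyte genes were examined in bulk-seq of the spinal cord of SMA and control mice. The 10 genes, Gfap, Vim, Slc1a2, Slc1a3, Aqp4, Gja1, Aldh1l1, S100b, Fgfr3 and Sox9, were picked by name as markers of astrocytes, out of 25576 genes listed in at least 1 library. Too little SMN protein causes the motor neuron disease spinal muscular atrophy (SMA), and the study asked how the cell types of the spinal cord differ in its severe Taiwanese mouse model. Whole spinal cord was taken at postnatal day 4 from mice of the FVB strain, with 3 libraries from mice labelled mSmn-/-, hSMN22tg/0 (SMA) and 3 from mice labelled mSmn+/-, hSMN22tg/0 (control). Both groups therefore carried the human SMN2 transgene, and the control mice also lacked one mouse Smn allele. The study's methods describe the bulk-seq libraries as triplicates and give a sample number of a single one per group, so the spread between replicates, on which all p-values rest, may be technical. Levels are FPKM, the fragments of a gene scaled to its exon length and to the fragments mapped in the library, so levels can be set side by side between genes.

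Astrocytes are the glial cells that clear glutamate and potassium around synapses, pass metabolites to neurons, and cover blood vessels with their end feet. In the newborn cord they arise from radial glia, which line the central canal, and they go on to divide and mature after birth. A rise of the filament genes Gfap and Vim is the classical sign of reactive astrocytes in injured or diseased tissue. Vim is also made by radial glia, endothelial cells, fibroblasts and Schwann cells, so it marks astrocytes less strictly than the others.

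Before the genes are compared, 1 library needs to be set apart. Control replicate 2 held liver and red blood cell transcripts. Alb, the albumin of blood plasma made by hepatocytes, was at 15890 FPKM there, against 44.6 and 30.7 FPKM in control replicates 1 and 3 and 24.7, 56.2 and 30.5 FPKM in the SMA libraries. All 26 genes of a hepatocyte list were highest in control replicate 2, where they made up 7.51% of the summed FPKM, against 0.0153% to 0.0328% in the other libraries. All 9 genes of an erythroid list were highest there too and made up 4.56%, against 0.304% to 0.517%. Over the genes tested, log2(FPKM + 1) in control replicate 2 correlated with the other libraries at r = 0.836 to 0.849, while those 5 correlated with each other at 0.983 or more (r across genes, which are not independent replicates). Fold changes are therefore given with all 6 libraries and without control replicate 2. Smn1 was at 10.4, 8.64 and 11.9 FPKM in control replicates 1, 2 and 3 and at 8.48, 9.30 and 11.1 FPKM in SMA replicates 1, 2 and 3. Since the groups overlapped, Smn1 did not check the labels, and "SMA libraries" stands for the libraries labelled so.

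The astrocyte genes themselves moved with this library. Of the 10 genes, 8 (80.0%) were at their lowest of the 6 libraries in control replicate 2, against 44.9% of the 17088 genes tested. Their median level there was 0.785 of the mean of control replicates 1 and 3, against 0.889 over all genes tested, 0.570 over 24 neuron genes and 0.746 over 20 oligodendrocyte lineage genes. The 10 genes made up 0.148% of the summed FPKM in control replicate 2, against 0.206% and 0.214% in the other control libraries and 0.197%, 0.205% and 0.181% in the SMA libraries. The exceptions were Vim, at 1.01 of the other controls, and Aldh1l1, at 1.85. FPKM is scaled to the whole library, and the hepatocyte and erythroid lists made up 7.51% and 4.56% of the summed FPKM in control replicate 2. The part of these transcripts in the lower levels there was not tested. In bulk tissue, fewer cells of a type and less RNA per cell cannot be told apart either.

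**Figure D1:**
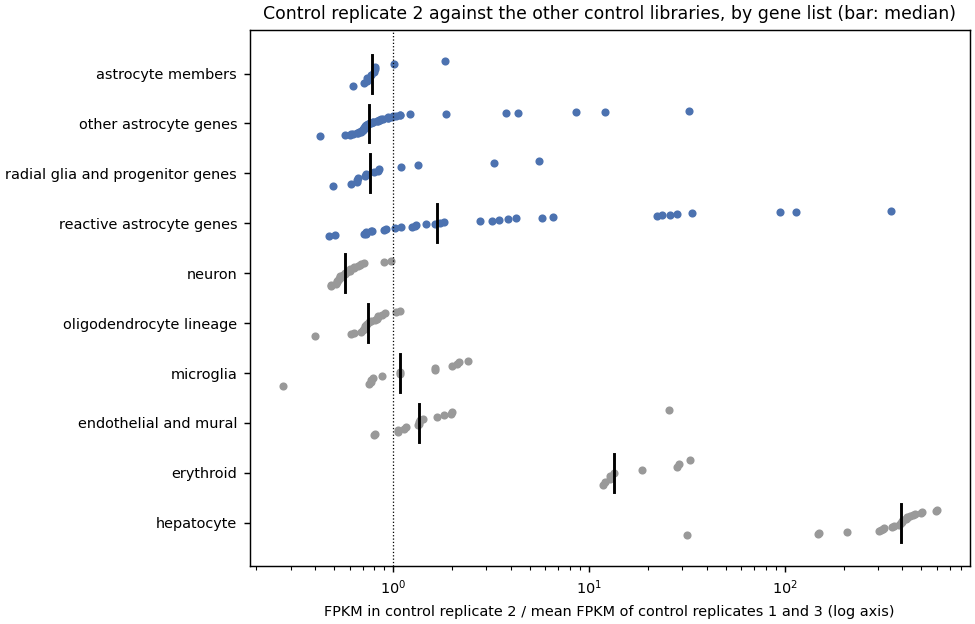
Each point is a gene, placed by its FPKM in control replicate 2 divided by its mean in control replicates 1 and 3 on a log axis, and grouped by list; bars are list medians, and genes at 0 in control replicate 2 or in both other controls are not drawn. The 10 astrocyte genes, the other astrocyte genes and the neuron genes lie mostly below 1, with medians of 0.785, 0.757 and 0.570. The median of the reactive astrocyte list is 1.68, above 1, and that of the hepatocyte list is 395.

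The 10 genes were compared between SMA and control with limma on log2(FPKM + 1). With all 6 libraries, 0 of the 10 passed an unadjusted p of 0.05 in either direction, while 2.39% of the genes tested passed as lower and 3.40% as higher. Their groups overlapped for 10 of 10 genes, while 6.67% of the genes tested had every SMA library below every control and 10.3% every SMA library above. No gene of the 17088 tested passed an adjusted p of 0.05 (Benjamini-Hochberg, 0.00%), and 29 (0.170%), none of them among the 10, passed an unadjusted p of 0.05 with a fold over 2. Without control replicate 2, Aqp4 and S100b were lower at an unadjusted p of 0.05 and none was higher, where 5.20% of 16574 genes were lower and 5.27% higher. The same pair were lower in every SMA library, where 13.9% of all genes were lower and 14.2% higher without overlap. Neither reached an adjusted p of 0.05, which 2 genes (0.0121%) did, the small noncoding RNA genes Rpph1 and Snora74a, named after their values were seen. None of the 10 was among the 23 genes (0.139%) that also had a fold over 2. The median log2 fold change of the 10 genes was -0.01 with all libraries, beside 0.04 over all genes, and -0.05 without control replicate 2, beside 0.00.

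**Figure D2:**
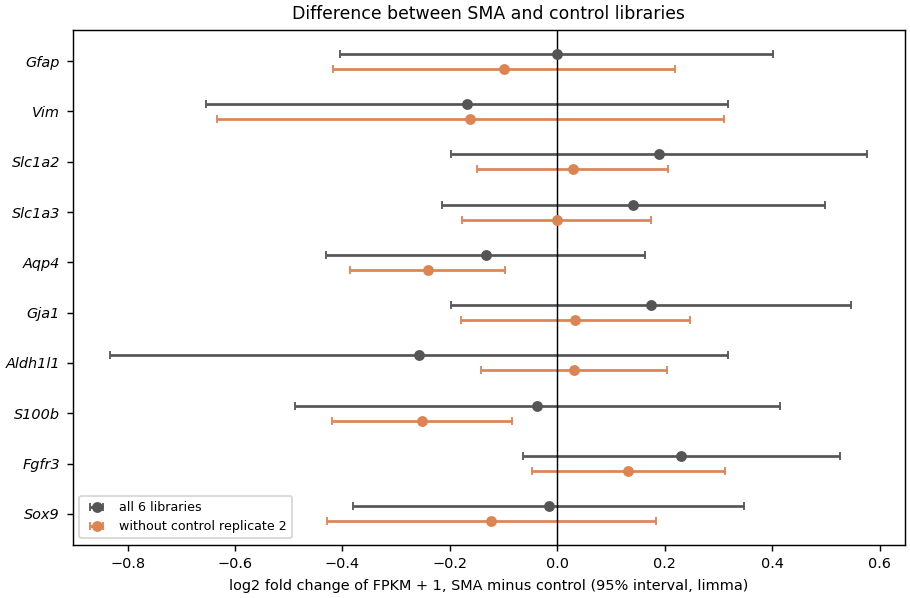
Points are limma log2 fold changes of FPKM + 1, SMA minus control, with 95% intervals, from all 6 libraries (grey) and without control replicate 2 (orange). All 10 grey intervals span 0; of the orange ones, those of Aqp4 (-0.24) and S100b (-0.25) lie below 0.

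The intermediate filament genes came first. Gfap, the glial fibrillary acidic protein that builds the astrocyte cytoskeleton, was at 124, 117 and 167 FPKM in control replicates 1, 2 and 3 and at 136, 150 and 119 FPKM in SMA replicates 1, 2 and 3. The SMA values lay within the range of the controls, and the highest and lowest of the 6 libraries were both controls. The log2 fold change was -0.00 (SE 0.17, adjusted p = 0.998, limma) and without control replicate 2 it was -0.10 (SE 0.14, adjusted p = 0.839, limma). The 95% intervals on the log2 scale ran from -0.40 to 0.40 with all libraries and from -0.42 to 0.22 without control replicate 2. Vimentin (Vim), the filament of immature astrocytes, radial glia and mesenchymal cells, was at 80.3, 74.5 and 67.4 FPKM in the control replicates and at 87.7, 64.1 and 50.3 FPKM in the SMA replicates. Its spread was wide within the SMA group, with the highest and the lowest library of all 6, and its log2 fold change of -0.17 (SE 0.20), and -0.16 (SE 0.20) without control replicate 2, was smaller than its standard error. Vim varied most among the SMA libraries of the 10 genes, with a coefficient of variation of 28.1%, followed by Gfap with 11.6%, while the other 8 lay between 2.11% and 8.21%.

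Transcripts of other cells that make vimentin varied in the same SMA libraries. Of a list of 12 Schwann cell genes, 9 were lowest of the 6 libraries in SMA replicate 3. Of 10 fibroblast genes, 9 were lowest in SMA replicate 3 too, and their summed level was 225, 105 and 61.6 FPKM in the SMA replicates and 211, 518 and 189 FPKM in the controls. Fn1, fibronectin, had the highest mean of the fibroblast list, and no gene of either list was listed at 0 in any library. The order of the SMA libraries was thus the same for the fibroblast sum and for Vim, and the part of these cells in the Vim values was not tested.

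The glutamate transporters followed. Slc1a2 encodes GLT-1, which removes most of the glutamate released at synapses, and it was at 117, 81.8 and 113 FPKM in the control replicates and at 107, 125 and 120 FPKM in the SMA replicates. Slc1a3 encodes GLAST, the transporter that appears earlier in development, and it was at 98.8, 67.9 and 85.4 FPKM in the control replicates and at 90.5, 96.0 and 88.8 FPKM in the SMA replicates. Both were lowest in control replicate 2, and the other 5 libraries overlapped between the groups. Their log2 fold changes of 0.19 (SE 0.16) and 0.14 (SE 0.15) became 0.03 (SE 0.08) and -0.00 (SE 0.08) without that library. The 95% interval for Slc1a2 then ran from -9.89% to 15.4% and that for Slc1a3 from -11.6% to 12.8%, while on the log2 scale with all libraries they ran from -0.20 to 0.58 and from -0.22 to 0.50. GLAST is known to be ahead of GLT-1 in immature cord, and the ratio of Slc1a3 to Slc1a2 can be read within each library, where library scaling cancels. It was 0.845, 0.831 and 0.758 in the control replicates and 0.849, 0.768 and 0.739 in the SMA replicates. The ranges of the groups overlapped, with p = 0.7 in a two-sided exact permutation test.

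Next came the channels of end feet and gap junctions. Aquaporin 4 (Aqp4), the water channel of the end feet on blood vessels, was at 111, 87.8 and 109 FPKM in the control replicates and at 97.5, 93.8 and 87.8 FPKM in the SMA replicates. The SMA values all lay below control replicates 1 and 3 and above control replicate 2, the lowest of them by a small margin. The log2 fold change was -0.13 (SE 0.12, adjusted p = 0.692, limma) with all libraries and -0.24 (SE 0.06) without control replicate 2, where the unadjusted p was 0.00521 and the limma adjusted p was 0.313. Connexin 43 (Gja1), the main protein of astrocyte gap junctions, was at 98.8, 66.8 and 81.7 FPKM in the control replicates and at 90.3, 98.6 and 87.4 FPKM in the SMA replicates. The SMA values lay within the range of the controls, and the log2 fold change of 0.17 (SE 0.16) was 0.03 (SE 0.09) without control replicate 2. The ratio of Gja1 to Aqp4 was 0.887, 0.761 and 0.751 in the control replicates and 0.926, 1.05 and 0.995 in the SMA replicates. All 3 SMA ratios were above all 3 control ratios, with a difference of 0.31 on the log2 scale (SD 0.13 in control and 0.09 in SMA). The exact permutation p was 0.1, the smallest that 3 against 3 can give, and 0.25 after Benjamini-Hochberg adjustment over the 5 ratios examined. Without control replicate 2 the difference was 0.28, again without overlap (exact permutation p = 0.2, the smallest that 3 against 2 can give).

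Since end feet sit on vessels, the endothelial and mural list is given beside Aqp4. Of its 16 genes, 9 were lower at an unadjusted p of 0.05 and none higher, beside 2.39% and 3.40% of all genes tested, and the median log2 fold change was -0.54 beside 0.04. Leaving out control replicate 2, 8 were lower and none higher, beside 5.20% and 5.27%, and the median was -0.40 beside 0.00. The count of lower genes fell to 4 without SMA replicate 2, and to 4 without SMA replicate 3. The shares of all genes passing in those fits are not given here. Cldn5, the claudin of the blood-brain barrier, was at 25.8, 20.4 and 24.96 FPKM in the control replicates and at 16.4, 15.7 and 14.4 FPKM in the SMA replicates. All SMA values were below all controls, with a log2 fold change of -0.58 (SE 0.12, limma adjusted p = 0.683), which was -0.68 (SE 0.08, limma adjusted p = 0.108) without control replicate 2. The summed level of the list was 115, 494 and 139 FPKM in the control replicates and 106, 85.4 and 87.1 FPKM in the SMA replicates. Vtn, vitronectin, which pericytes and hepatocytes both make, had its highest mean and was at 359 FPKM in control replicate 2, and none of the genes was listed at 0. Their part in the Aqp4 values was not tested.

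Aldh1l1, an enzyme of folate metabolism used as a marker of nearly all astrocytes, was at 27.9, 48.4 and 24.4 FPKM in the control replicates and at 27.3, 26.2 and 26.6 FPKM in the SMA replicates. It was the only one of the 10 genes to be highest in control replicate 2. The enzyme is also abundant in liver, whose transcripts that library held, and their part in this value was not tested. The other 5 libraries lay close together, and the log2 fold change of -0.26 (SE 0.24) became 0.03 (SE 0.07) without it. The 95% interval on the log2 scale was -0.83 to 0.32 with all libraries and -9.38% to 15.2% as a percent change without control replicate 2. The SMA libraries had a coefficient of variation of 2.11% for Aldh1l1, the smallest of the 10 genes.

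S100b, a calcium-binding protein of maturing astrocytes that oligodendrocyte lineage cells also make, was at 30.5, 20.3 and 34.1 FPKM in the control replicates and at 26.2, 27.9 and 26.7 FPKM in the SMA replicates. The SMA values lay between control replicate 2 and the other control libraries. The log2 fold change was -0.04 (SE 0.19) with all libraries and -0.25 (SE 0.07) without control replicate 2, where the unadjusted p was 0.00898 and the limma adjusted p was 0.360. With all libraries scaled to the neuron list it was -0.32, beside a median of all genes of -0.20. S100b then passed an unadjusted p of 0.05 by limma, with an adjusted p of 0.631. Of 20 genes of the oligodendrocyte lineage, 19 were tested, and none passed an unadjusted p of 0.05 with all libraries. Without control replicate 2, 5 were lower and none higher, beside 5.20% and 5.27% of all genes tested, and the median log2 fold change was -0.17 beside 0.00. Among the 5 were Cnp and Mag of the myelin sheath, with log2 fold changes of -0.27 and -0.46, which were -0.18 and -0.31 with all libraries. The summed level of the list was 1178, 1085 and 1651 FPKM in the control replicates and 981, 1165 and 1203 FPKM in the SMA replicates. Mbp, myelin basic protein, had the highest mean, none of the genes was listed at 0, and the part of these cells in the S100b values was not tested.

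The last pair are a receptor and a transcription factor. Fgfr3, a receptor for fibroblast growth factors present on radial glia and astrocytes, was at 44.7, 38.8 and 51.4 FPKM in the control replicates and at 50.4, 55.4 and 52.2 FPKM in the SMA replicates. Its SMA values overlapped with control replicate 3 alone, and the log2 fold change was 0.23 (SE 0.12, adjusted p = 0.683, limma), and 0.13 (SE 0.08) without control replicate 2. Fgfr3 had the smallest unadjusted p of the 10 genes with all libraries, 0.106 by limma. Without control replicate 3 it was the only one under 0.05, with a log2 fold change of 0.33 and a limma adjusted p of 0.447, and scaled to the neuron list its log2 fold change was -0.06. Sox9, the transcription factor that starts gliogenesis and stays on in astrocyte nuclei, was at 11.3, 7.51 and 8.18 FPKM in the control replicates and at 9.11, 8.43 and 8.71 FPKM in the SMA replicates. The SMA values lay within the range of the controls, and the log2 fold change was -0.02 (SE 0.15), and -0.12 (SE 0.13) without control replicate 2. The ratio of Sox9 to Aldh1l1 was 0.404, 0.155 and 0.335 in the control replicates and 0.333, 0.322 and 0.327 in the SMA replicates. The control value of 0.155 belongs to the library with the high Aldh1l1, and the groups overlapped (exact permutation test, p = 1.0). Without control replicate 2 the SMA ratios were all lower, the nearest pair being 0.333 and 0.335, the log2 difference turned from 0.25 to -0.17, and the exact permutation p was 0.2, the smallest that 3 against 2 can give.

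**Figure D3:**
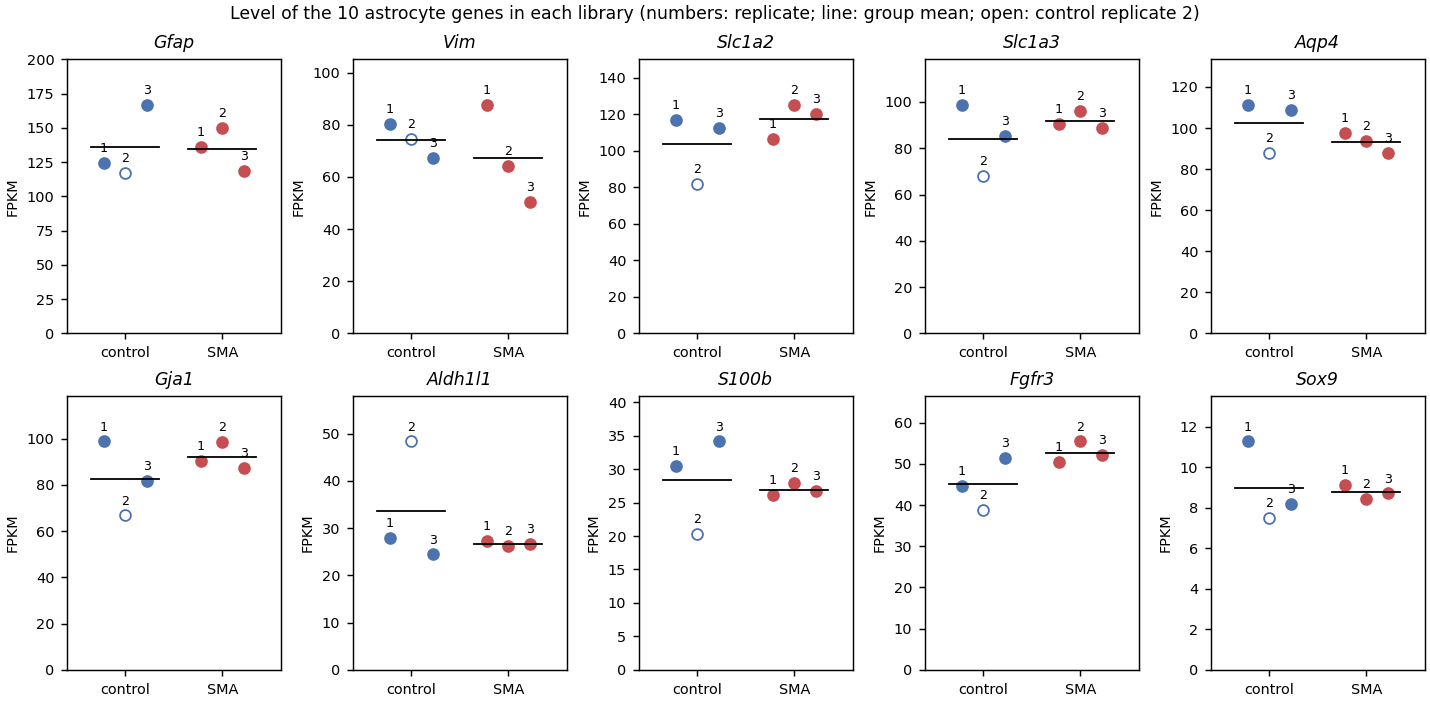
FPKM (y axis, from 0) of the 10 astrocyte genes in the control (blue) and SMA (red) libraries; numbers are replicates, lines are group means and the open circle is control replicate 2. That circle is the lowest point for 8 genes and the highest for Aldh1l1, and the groups overlap in every panel.

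The order of the levels was led by Gfap, with a mean of 136 FPKM over the 6 libraries, followed by Slc1a2 (110 FPKM), Aqp4 (97.8 FPKM), Slc1a3 (87.9 FPKM), Gja1 (87.3 FPKM), Vim (70.7 FPKM), Fgfr3 (48.8 FPKM), Aldh1l1 (30.1 FPKM), S100b (27.6 FPKM) and Sox9 (8.87 FPKM). The ranges of neighbours in this order overlapped except for S100b, which was above Sox9 in all 6 libraries. Those of Fgfr3 and Aldh1l1 overlapped only through control replicate 2. In the other libraries Fgfr3 was at 44.7 to 55.4 FPKM and Aldh1l1 at 24.45 to 27.9 FPKM. Gfap was above Slc1a2 in 5 libraries, Aqp4 above Slc1a3 in 4, and Aldh1l1 above S100b in 2. The means of that pair without control replicate 2, where Aldh1l1 was highest, were 26.5 and 29.1 FPKM, so their order turned. Slc1a3 and Gja1 did not differ beyond their spread.

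The pair of filaments was also compared within libraries. The ratio of Vim to Gfap, which falls as astrocytes mature, was 0.647, 0.636 and 0.404 in the control replicates and 0.643, 0.428 and 0.424 in the SMA replicates. Each group held both higher and lower libraries, and the groups overlapped (exact permutation test, p = 0.9). The genes whose profile over the 6 libraries was nearest to the mean of the 10, by the root mean square distance of centred log2(FPKM + 1) among 7127 other genes whose mean was 10 FPKM or more, were Sept11, Klf6, Ppil2, Coro1a and Armc1. Their distances were 0.0146 to 0.0233, and the profile they match departs most from its mean in control replicate 2 (-0.16) and control replicate 1 (0.10), followed by SMA replicate 3 (-0.07).

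A wider list of 50 astrocyte genes was compared in the same way. With all libraries, 49 were tested, of which 5 were higher and 1 lower at an unadjusted p of 0.05, beside 3.40% and 2.39% of all genes tested, with a median log2 fold change of 0.08 beside 0.04. Without control replicate 2, 10 of 50 were higher and 4 lower, beside 5.27% and 5.20%, with a median of 0.04 beside 0.00. The 10 include Fam107a, which passed the minimum only through its SMA values and so had to differ to be tested. The 5 and 1 became 0 and 0 without SMA replicate 1, 2 and 1 without SMA replicate 2, 1 and 0 without SMA replicate 3, 3 and 1 without control replicate 3 and 8 and 1 without control replicate 1. The shares of all genes passing are not given for these fits or for the rescaled ones. Whether the counts moved with those of all genes can therefore not be read from them. Rescaled without the hepatocyte list the counts were 1 and 1, so the count of higher genes changed with libraries and with scaling. The log2 fold changes of Aldoc, Gpc5, Scrg1, Atp1b2 and Hepacam, the 5 genes, were then 0.47, 0.44, 0.37, 0.35 and 0.31. Without SMA replicate 1 they were 0.55, 0.43, 0.33, 0.39 and 0.31. These fold changes thus stayed about as large as with all libraries where the calls were lost. Aldoc, the aldolase of astrocyte glycolysis, was at 222, 138 and 195 FPKM in the control replicates and at 232, 267 and 265 FPKM in the SMA replicates. All SMA values were above all controls, with log2 fold changes of 0.48 (SE 0.19) and, without control replicate 2, 0.29 (SE 0.09). Atp1b2, a subunit of the sodium-potassium pump of astrocytes, was at 140, 97.3 and 123 FPKM in the control replicates and at 148, 158 and 153 FPKM in the SMA replicates. These did not overlap either, with log2 fold changes of 0.36 (SE 0.15) and 0.22 (SE 0.07). The others that passed with all libraries were Hepacam, an adhesion protein that holds astrocyte junctions in place, and Gpc5 and Scrg1, with log2 fold changes of 0.32, 0.45 and 0.39, and 0.22, 0.30 and 0.36 without control replicate 2, of which Hepacam and Gpc5 were named after their values were seen. Ppp1r3c, which targets a phosphatase to glycogen, was the lower one, at 23.7, 24.7 and 22.0 FPKM in the control replicates and at 18.6, 20.2 and 18.6 FPKM in the SMA replicates. These values did not overlap, and the log2 fold change was -0.28 (SE 0.09), and -0.25 (SE 0.07) without control replicate 2. None of the 50 reached an adjusted p of 0.05, and the smallest adjusted p was 0.683 with all libraries and 0.264 without control replicate 2. When the libraries were scaled to the neuron list, which shifted the median of all genes to -0.20, none of these genes was higher at an unadjusted p of 0.05 and 3 were lower. That scaling moved control replicate 2 most, and without that library it gave 6 higher and 4 lower, with a median of all genes of -0.04. The shares of all genes passing under this scaling are not given here, so these counts are not set against them.

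For some astrocyte genes that liver also makes, the direction turned when control replicate 2 was left out. Agt, the angiotensinogen that astrocytes and hepatocytes secrete, was at 23.9, 203 and 23.6 FPKM in the control replicates and at 32.7, 47.5 and 42.3 FPKM in the SMA replicates. Its SMA values were all above control replicates 1 and 3, and the log2 fold change turned from -0.27 (SE 0.80) to 0.74 (SE 0.14, limma adjusted p = 0.264) without control replicate 2. Apoe, the lipid carrier that astrocytes make in the cord, was at 704, 2710 and 539 FPKM in the control replicates and at 764, 772 and 774 FPKM in the SMA replicates. It turned from -0.39 (SE 0.57) to 0.32 (SE 0.11) in the same way, and Cbs, an enzyme of sulfur amino acid metabolism, from -0.25 to 0.34. The metallothioneins Mt1 and Mt2, which bind zinc, behaved alike, with Mt2 at 80.4, 1034 and 63.5 FPKM in the control replicates and at 115, 122 and 150 FPKM in the SMA replicates. The log2 fold changes of Mt1 and Mt2 were -0.45 (SE 1.04) and -0.44 (SE 1.00) with all libraries. Leaving out control replicate 2, they were 0.87 (SE 0.17) and 0.84 (SE 0.13), and their limma adjusted p were 0.287 and 0.221. They belong to a list of 16 secreted and matrix genes of astrocytes, of which 14 were tested and none passed an unadjusted p of 0.05 with all libraries, while these 2 were higher and none lower without control replicate 2, beside 5.27% and 5.20% of all genes tested.

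Fam107a, an actin-binding protein of astrocytes and radial glia, was low but stood apart. It was at 0.166, 0.0786 and 0.206 FPKM in the control replicates and at 0.801, 0.838 and 0.818 FPKM in the SMA replicates. All SMA values were above all controls, but its mean of 0.485 FPKM was under the minimum of 0.5 FPKM for the test with all libraries. With no minimum its log2 fold change was 0.66 (SE 0.08, unadjusted p = 0.000114, limma adjusted p = 0.737), and without control replicate 2 it was 0.62 (SE 0.14, limma adjusted p = 0.300). The means in the latter were 0.819 FPKM in SMA and 0.186 FPKM in control replicates 1 and 3, so only the SMA values took it past the minimum.

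Genes of radial glia and progenitors, from which astrocytes arise, made up a further list. Of its 14 genes, none passed an unadjusted p of 0.05 with all libraries, while without control replicate 2, 4 were lower and none higher, beside 5.20% and 5.27% of all genes tested, with a median log2 fold change of -0.18 beside 0.00. Fabp7, the fatty acid-binding protein of radial glia and young astrocytes, was at 626, 395 and 577 FPKM in the control replicates and at 440, 421 and 414 FPKM in the SMA replicates. The SMA values were below control replicates 1 and 3 and above control replicate 2. The log2 fold change was -0.30 (SE 0.20) and, without control replicate 2, -0.50 (SE 0.07), with an unadjusted p of 0.000121 and a limma adjusted p of 0.176. Hopx, a homeodomain protein of radial glia, was at 23.3, 16.1 and 25.5 FPKM in the control replicates and at 19.0, 18.7 and 16.7 FPKM in the SMA replicates, which gave -0.22 (SE 0.17) and, without control replicate 2, -0.41 (SE 0.08). Ednrb, an endothelin receptor of immature astrocytes from the list of 50, showed the same order, with -0.13 (SE 0.13) and, without control replicate 2, -0.25 (SE 0.07). The other lower ones were the division genes Top2a and Mki67, at -0.97 (SE 0.43) and -1.17 (SE 0.60) with all libraries and -0.44 (SE 0.15) and -0.43 (SE 0.18) without control replicate 2, where both were at their highest. Their groups did not overlap either way. Mki67, which every dividing cell makes, was at 4.50, 21.7 and 3.30 FPKM in the control replicates and at 3.29, 2.08 and 2.56 FPKM in the SMA replicates.

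**Figure D4:**
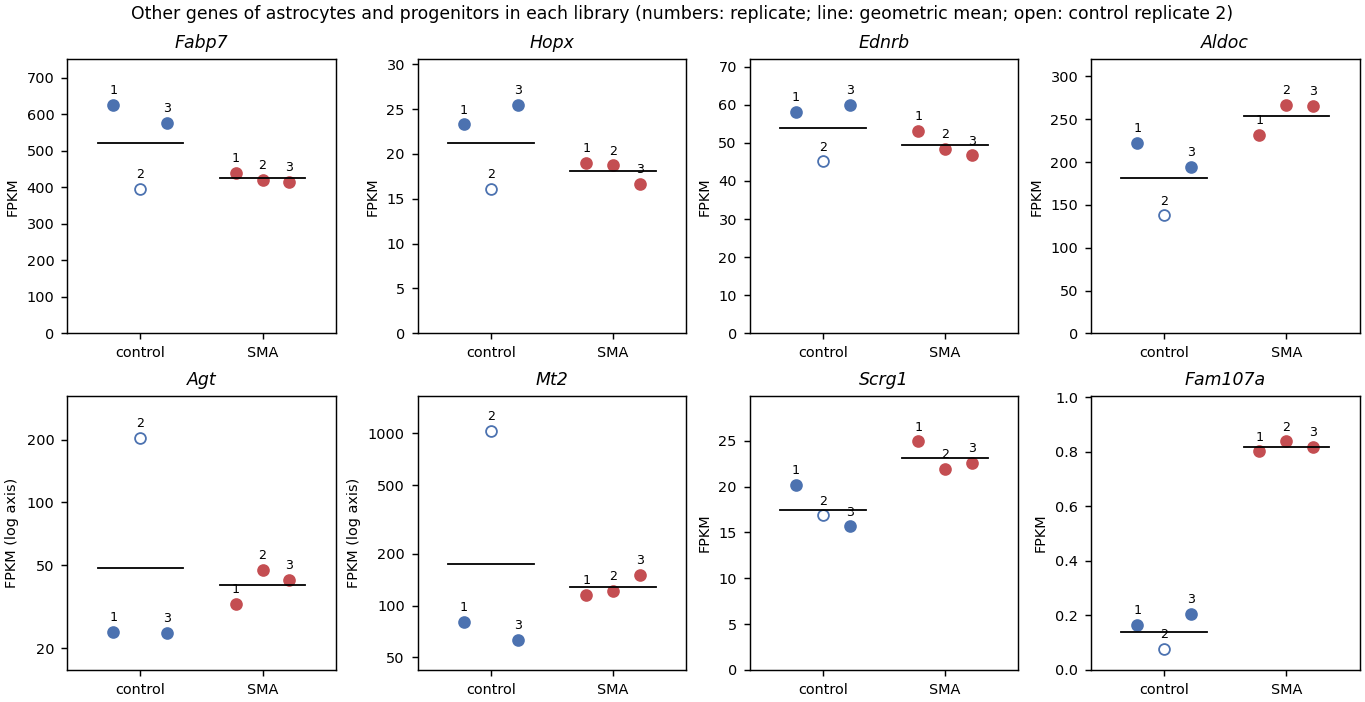
FPKM of 8 genes of the wider lists in the control (blue) and SMA (red) libraries, from 0 except for Agt and Mt2, which have log axes; numbers are replicates, lines geometric means and the open circle control replicate 2. Fabp7, Hopx and Ednrb lie lower in SMA than in control replicates 1 and 3, Aldoc, Scrg1 and Fam107a lie higher than in all 3 controls, and Agt and Mt2 lie between control replicate 2 and the other controls.

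The ratio of Fabp7 to Aldoc sets a gene of young astrocytes against one of mature astrocytes within each library. It was 2.82, 2.87 and 2.96 in the control replicates and 1.90, 1.58 and 1.56 in the SMA replicates. Control replicate 2 lay between the other controls here, although both genes were at their lowest of the controls in it. The 3 SMA ratios were below the 3 control ratios, with a difference of -0.78 on the log2 scale (SD 0.04 in control and 0.16 in SMA). The exact permutation p was 0.1, the smallest possible, and 0.25 after adjustment over the 5 ratios, and the difference was -0.79 without control replicate 2 (exact permutation p = 0.2, also the smallest possible).

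**Figure D5:**
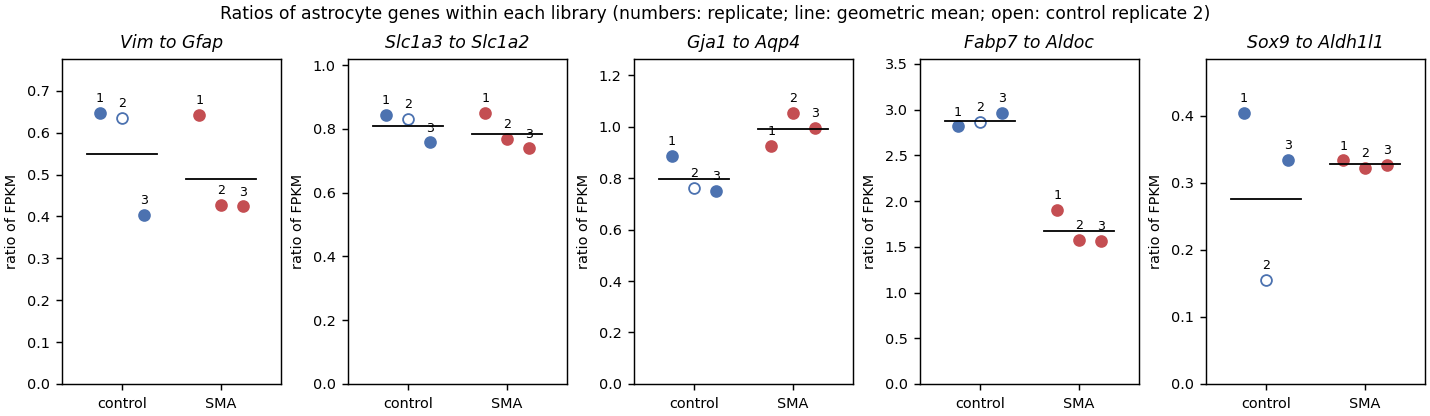
Ratios of FPKM within each library (y axes from 0) for 5 pairs of genes, control in blue and SMA in red; numbers are replicates, lines geometric means and the open circle control replicate 2. The groups are apart for Gja1 to Aqp4, at 0.751 to 0.887 against 0.926 to 1.05, and for Fabp7 to Aldoc, at 2.82 to 2.96 against 1.56 to 1.90, and overlap for the other 3.

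The promoters of 3 of these genes are shown, Gfap for the filament of mature and reactive astrocytes, S100b as one of the pair that was lower without control replicate 2, and Fabp7 for radial glia. RefSeq windows of 250 bases before a start site (GRCm38.p6) were read for 8 of the 10 genes, all but Aqp4 and Sox9. They were searched on both strands for TTGGC, the core motif of nuclear factor I (NFI), a family of factors that act in gliogenesis, for the full NFI motif, TTGGC and GCCAA with any 5 bases between them, and for the TATA box TATAAA. A window of 3 of the 8 genes (S100b, Vim and Slc1a2) held the core, as did 41.5% of all 32851 windows. All 250 bases of the Vim window and 29 of the Slc1a2 window lie in exons of these genes in GENCODE M21, so the matches in Vim are in transcribed sequence. None held the full motif, which 0.0365% of all windows held, and those of Vim and Slc1a3 held the TATA box, as did 12.4%. Each sequence reads 5′ to 3′ on the strand of its gene, and capitals mark the NFI core, which reads GCCAA where it lies on the other strand.
Gfap, chr11:102897201-102897450, minus strand: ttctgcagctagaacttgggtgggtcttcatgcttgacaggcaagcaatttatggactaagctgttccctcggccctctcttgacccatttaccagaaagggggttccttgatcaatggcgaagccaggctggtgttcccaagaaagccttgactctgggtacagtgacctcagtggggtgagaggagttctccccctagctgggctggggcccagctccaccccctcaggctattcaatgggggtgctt
S100b, chr10:76253586-76253835, plus strand: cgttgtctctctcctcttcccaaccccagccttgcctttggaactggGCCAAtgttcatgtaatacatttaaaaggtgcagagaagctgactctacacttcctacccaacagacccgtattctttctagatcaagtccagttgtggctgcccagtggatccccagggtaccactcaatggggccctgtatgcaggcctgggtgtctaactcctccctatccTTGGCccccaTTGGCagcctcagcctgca
Fabp7, chr10:57784673-57784880, plus strand: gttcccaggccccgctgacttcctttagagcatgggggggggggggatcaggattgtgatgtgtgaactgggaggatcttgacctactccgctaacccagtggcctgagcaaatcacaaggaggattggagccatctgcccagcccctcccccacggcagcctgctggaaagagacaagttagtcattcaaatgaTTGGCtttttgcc
None of these bases lies in an exon of its gene in GENCODE M21, the window of Fabp7 being shortened to 208 bases for that purpose, and that of Gfap lies within the span of the gene, chr11:102887336-102900912. The window of Gfap holds no core motif, that of S100b 3 and that of Fabp7 1, and a match is a description of letters only.

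Genes of reactive astrocytes were tested as a further list of 36 genes. With all libraries 31 were tested, of which 1 was higher and none lower at an unadjusted p of 0.05, beside 3.40% and 2.39% of all genes tested. Of the 24 tested without control replicate 2, 1 was higher and none lower, beside 5.27% and 5.20%, so both counts were near the share over all genes. The median log2 fold change was -0.37 beside 0.04 with all libraries and -0.11 beside 0.00 without control replicate 2, where 23 of the 36 genes were highest. The median over the 31 rests in part on 7 genes that reached the minimum only with control replicate 2, a filter that favours a lower value in SMA. The higher gene was Hspb1, a small heat shock protein, at 2.40, 2.08 and 3.46 FPKM in the control replicates and at 3.74, 4.49 and 4.94 FPKM in the SMA replicates. Its groups did not overlap, with log2 fold changes of 0.58 (SE 0.18) and, without control replicate 2, 0.46 (SE 0.16). Of the reactive genes tested with all libraries, 4 were lower and 1 higher without overlap, beside 6.67% and 10.3% of all genes. Without control replicate 2 these counts were 4 and 2, beside 13.9% and 14.2%. Serpina3n, a protease inhibitor that marks reactive astrocytes, was at 16.0, 97.2 and 13.5 FPKM in the control replicates and at 14.7, 14.0 and 14.1 FPKM in the SMA replicates. Hepatocytes make it too, and its values in the other 5 libraries lay close together. Lcn2, lipocalin 2, was at 41.7 FPKM in control replicate 2 and at or under 0.719 FPKM in each of the other libraries, and C3, the complement component, was at 667 FPKM there and between 1.11 and 2.29 FPKM elsewhere.

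The positions of the genes bear on how their fragments were assigned. In the deposited files Gfap shares a merged span of chromosome 11 with 10 other genes, among them Eftud2, Ccdc103 and Kif18b, S100b shares one with Dip2a, and Aldh1l1, Slc1a3 and Fgfr3 share theirs with 2, 1 and 1 further genes. Whether strand was used in counting is not given in the sources used here, so fragments of overlapping genes on opposite strands may have been assigned to either. The other 5 genes have a span of their own.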

How the data were processed

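Total RNA of spinal cord was depleted of ribosomal RNA and made into strand-specific libraries. The authors aligned reads with HISAT2 to mm10 and deposited FPKM from Cufflinks for each library on its own, per the labels and the study's methods; versions are not given in the sources used here. A gene absent from a file was set to 0 FPKM. Groups came from the genotype labels. Here genes averaging 0.5 FPKM or more were compared on log2(FPKM + 1) between SMA and control with limma 3.58.1 in R 4.3.3 (trend, two-sided, Benjamini-Hochberg adjustment over all genes tested), and ratios with exact permutation tests in scipy 1.17.1. The procedure was tested on simulated data with the same noise for every gene and large changes. They held no library like control replicate 2, so the test does not show how the procedure performs on these data. Besides the 10 genes, those named are, per list, the 5 with the highest mean and at most 8 by p, where a result used them; Lcn2 was named after its values were seen. Other lists printed were neuron, oligodendrocyte lineage, microglia, endothelial and mural, fibroblast, ependymal, Schwann cell, erythroid and hepatocyte genes. The genes and lists were chosen with earlier results of these data known. FPKM holds no counts, so depth in reads is unknown. Relative depths came from ratios of the same genes' lowest values (up to 0.15 FPKM) to SMA replicate 1, taken at their mode. They were 1.16, 1.09 and 1.04 for control replicates 1, 2 and 3 and 1.00, 1.01 and 1.00 for SMA replicates 1, 2 and 3. Apart from SMA replicate 1, the modes held 56 to 81 of 1112 to 1506 genes compared, so these depths are rough. Control replicates 1, 2 and 3 listed 21418, 22161 and 21197 genes, against 22201 to 22296 in the SMA libraries. Alternatives were a pseudocount of 0.1, no minimum or one of 1 FPKM, median ratio, quantile, hepatocyte-free and neuron-list scaling, robust eBayes, a replicate block and leaving out each library; scaling joined with leaving out control replicate 2, and the counts of the other lists under each alternative, were added after seeing the data. Sequences are from RefSeq (GRCm38.p6) and gene spans from GENCODE M21 (GRCm38).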

Additional observations from a re-analysis of the deposited data

How the results depend on the processing

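Over 17 alternatives, 151 of 170 recomputed log2 fold changes of the 10 astrocyte genes kept their direction and 19 changed sign, none reached an adjusted p of 0.05 by limma, and the smallest adjusted p was 0.304. For 18 other named genes, 291 of 306 kept it, 15 changed sign, and the smallest adjusted p was 0.101. Where a value changed, the cause was not tested.

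Leaving out 1 library at a time gave 0 to 2 genes past an adjusted p of 0.05, and 4 to 131 lower and 12 to 28 higher genes past an unadjusted p of 0.05 with a fold over 2 (17 and 12 with all libraries). The 131 came without control replicate 3, the 28 without control replicate 1 and the 4 without SMA replicate 2. At an unadjusted p of 0.05, 0 to 2 of the 10 astrocyte genes were lower and 0 to 1 higher, 0 to 4 other astrocyte genes lower and 0 to 10 higher (both 0 without SMA replicate 1), and 0 to 4 progenitor genes lower and 0 to 1 higher. For reactive genes these were 0 to 3 lower and 0 to 1 higher, for secreted and matrix genes 0 to 2 higher, and for endothelial and mural genes 4 to 11 lower, with 4 without SMA replicate 2 or 3. Of the alternatives, only the fit without control replicate 2 has its shares of all genes at this threshold given here (5.20% lower and 5.27% higher). The list counts of the others are therefore not set against all genes. The median log2 fold change of all genes ran from 0.0016 to 0.065 over the fits that left out 1 library. Log2 fold changes ran from -0.10 to 0.15 for Gfap, -0.0014 to 0.27 for Slc1a3, -0.45 to 0.031 for Aldh1l1, -0.25 to 0.11 for S100b, -0.37 to 0.021 for Vim and -0.12 to 0.14 for Sox9. They ran from -0.84 to 0.32 for Apoe, -0.79 to 0.74 for Agt, -0.56 to 0.34 for Cbs, -1.27 to 0.87 for Mt1 and -1.17 to 0.84 for Mt2, and the ratio of Sox9 to Aldh1l1 from -0.17 to 0.52.

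With a pseudocount of 0.1, 125 genes were lower and 64 higher with a fold over 2, and 1 reactive gene was lower. With no minimum, 2 reactive genes were lower and 1 secreted gene higher. Rescaled without the hepatocyte list, 26 genes were lower with a fold over 2 and 11 higher, 1 progenitor gene was lower and 1 other astrocyte gene higher. Median ratio scaling gave 2 lower other astrocyte genes, and quantile normalization gave 0.012 for Sox9, in place of -0.016. Scaling to the neuron list moved the median of all genes from 0.04 to -0.20. It gave 28 lower and 6 higher genes with a fold over 2, 2 lower genes among the 10 (Aqp4 and S100b), 3 lower and 0 higher other astrocyte genes, 2 lower progenitor genes and 0 higher reactive genes. Log2 fold changes were then -0.10 for Slc1a2, -0.15 for Slc1a3, -0.12 for Gja1 and -0.058 for Fgfr3. The replicate block gave 35 lower and 13 higher genes with a fold over 2, 0 lower and 3 higher other astrocyte genes, 1 lower reactive and 1 lower secreted gene. Whether replicate numbers pair samples is not given in the labels. Across genes, residuals of same-numbered libraries correlated at -0.037, 0.0161 and 0.0766, and those of differently numbered ones at -0.0554 to 0.0434. Residuals within a group are not independent, and control replicate 2 departs most from the other libraries, so these values cannot decide it.

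Chosen after seeing the data, leaving out control replicate 2 with median ratio scaling gave 1 gene past an adjusted p of 0.05, 7 lower with a fold over 2, 2 lower among the 10, 5 lower and 9 higher other astrocyte, 4 lower progenitor and 2 higher secreted genes. Log2 fold changes were -0.0080 for Slc1a3, 0.025 for Aldh1l1, 0.31 for Apoe, 0.74 for Agt, 0.34 for Cbs, 0.87 for Mt1 and 0.83 for Mt2. With neuron scaling instead, these counts were 1, 8 lower with a fold over 2, 2 lower among the 10, 4 lower and 6 higher other astrocyte, 4 lower progenitor and 2 higher secreted genes. Values were -0.020 for Slc1a2, -0.049 for Slc1a3, -0.014 for Gja1, 0.27 for Apoe, 0.69 for Agt, 0.30 for Cbs, 0.82 for Mt1 and 0.79 for Mt2.

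With 3 libraries in each group, whose kind of replicate is unclear, no permutation p can be under 0.1. FPKM gives no counts, so counting error could not be computed. Each of the 10 genes was tested under every alternative, while Fam107a lay near the minimum.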

Other observations

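The remaining lists are given beside all genes tested, of which 2.39% were lower and 3.40% higher at an unadjusted p of 0.05 with all libraries, with a median log2 fold change of 0.04. Without control replicate 2 these were 5.20%, 5.27% and 0.00. Of 14 microglia genes none passed an unadjusted p of 0.05 in either direction, with all libraries or without control replicate 2, and the median log2 fold changes were -0.11 and 0.08. Of 12 ependymal genes 11 were tested, none passed with all libraries and 1, Mlf1, was lower without control replicate 2, with medians of 0.09 and 0.05. Foxj1, the regulator of motile cilia, was at 4.84, 3.93 and 4.08 FPKM in the control replicates and at 5.22, 4.72 and 4.38 FPKM in the SMA replicates, and the groups overlapped. Of 24 neuron genes none passed with all libraries, and without control replicate 2, 4 were higher and 1 lower, with medians of 0.27 and 0.04. Of 12 Schwann cell genes none passed either way, with medians of -0.44 and -0.47, and of 10 fibroblast genes 1 was lower each way, with medians of -0.77 and -0.63. Of 26 hepatocyte genes none passed with all libraries or, for the 19 tested, without control replicate 2, and the median went from -2.22, over genes that include those past the minimum only through control replicate 2, to 0.17. Of 9 erythroid genes none passed with all libraries, with a median of -1.53, which was -0.30 without control replicate 2.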
